A study of Homo sapiens with 6 samples.

Results

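Integrins and the proteins that tie them to the cytoskeleton at focal adhesions were examined as a group of 39 genes, of which 13 encode integrin alpha chains, 8 encode beta chains and 18 encode adaptor proteins. The members were listed by name. A probe set is the group of short DNA probes that reads 1 transcript region, and a gene's value was taken from the brightest one, by the mean of the 6 arrays, among those annotated to no other gene. By this rule 38 of the 39 members were measured, with 116 probe sets of their own, out of 19775 genes and 54613 probe sets tested. The beta chain ITGB6 had no probe set of its own.

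RNA came from IKPRAB-36, a derivative of the Ishikawa endometrial cancer line with stably transfected progesterone receptors A and B (PRA and PRB). The control group was 3 arrays of cells cultured for 48 h without hormone (control 1 to 3), and the MPA group was 3 arrays of cells given 1 nM medroxyprogesterone acetate, a synthetic progestin, for the same 48 h (MPA 1 to 3). Cells of both groups were kept in charcoal-stripped serum, which is low in steroids, under selection with hygromycin and neomycin. The study used the comparison to ask how progestin acts on endometrial cancer cells, in particular on their migration. Its other stated aim was the part of progesterone signaling in infiltration by T-lymphocytes. All results concern 1 transfected line, and no source used here names the promoter of its receptor transgenes. Nor is it stated whether the arrays of a group came from separate cultures, so that the spread behind each p-value is that of these arrays alone and may be technical.

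Integrins are pairs of 1 alpha and 1 beta chain that span the membrane and bind matrix proteins such as fibronectin, laminin and collagen. Talins and kindlins bind the tails of the beta chains and switch the receptors on, and a complex of ILK, PINCH and parvin proteins, the kinase FAK with its scaffolds paxillin and p130Cas, and the linkers vinculin, zyxin, tensin and alpha-actinin connect the bound receptors with signaling and with actin filaments. In the endometrium, integrins have been studied mostly as epithelial receptors that vary over the menstrual cycle.

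Signals are RMA values on the log2 scale, on which a difference of 1 is a doubling, and a level means the log2 signal of 1 probe set, which is not compared between genes. Array medians were 5.16 to 5.28, and correlations between arrays of a group were 0.9875 to 0.9965. MPA 3 stood apart in the Affymetrix control probe sets. Its mean over 15 probe sets for added poly-A control RNAs was 5.83 against 6.91 to 7.58 on the other arrays. Its mean over 3 probe sets for 18S ribosomal RNA, which is not an added RNA, was 7.06 against 8.09 to 9.44. All 7 epithelial markers had a mean above every array median, among them KRT8 (13.12 ± 0.10, SD, n = 3, in control cells), KRT18 (14.02 ± 0.05) and EPCAM (11.21 ± 0.14). CLDN4 (5.55 ± 0.15) was only a little above. The same held for 2 of 6 leukocyte (CD3E and CD79A), 4 of 8 fibroblast and 1 of 6 endothelial markers (PECAM1), so that this criterion alone does not tell cell types apart. The leukocyte marker PTPRC was below every array median in both groups (3.66 and 3.72), as were 4 of 6 leukocyte, 4 of 8 fibroblast and 4 of 6 endothelial markers, while the collagens COL1A1 (8.97 in control cells) and COL3A1 (10.49) were well above them. No gene of these marker lists was called by limma, while SAM called the epithelial markers CDH1 (8.30 in control and 7.54 in MPA cells) and EPCAM (10.67 in MPA cells), the Mullerian marker PAX8 (10.77 and 10.33) and the collagens COL1A1 and COL3A1 (8.17 and 9.96 in MPA cells) lower; the part of such shifts in the results below was not tested. The progesterone receptor gene PGR was at 10.22 ± 0.04 in control and 10.70 ± 0.33 in MPA cells. Whether this signal came from the transfected receptors or from the line's own gene was not tested. Of the other Mullerian markers, EMX2 was at 10.13 in control cells, while ESR1 (5.79) was a little above the array medians and PAX2 (5.01) below them.

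MPA raised 1 of the 38 members, ITGB1, the beta chain shared by the largest family of integrins, by 1.82-fold, and lowered none. A call needed an adjusted p under 0.05 by limma over all probe sets and a difference of at least 0.32 on the log2 scale. By the same rule 1.74% of the 19775 genes were higher and 1.16% lower, so that 1 member higher and 0 lower did not set the members apart in number. At an unadjusted p under 0.05, 4 of the 38 members were higher (ITGB1, ITGA10, ITGAV and VCL) against 6.2% of all genes, and 2 were lower (TNS1 and TNS3) against 5.56%. SAM, the test of the study's methods, called 3 members higher (ITGB1, ITGA10 and VCL) and 1 lower (TNS3), where it called 3.1% of all genes higher and 2.13% lower. The MPA arrays lay entirely above the control arrays for 5 members (ITGB1, ITGA10, ITGA6, PARVA and VCL) and entirely below them for TNS3, against 8.96% and 7.98% of all genes. Fewer cells that express a gene and less RNA of it per cell cannot be told apart in such bulk RNA.

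The 95% interval of the difference lay within a 2-fold change either way for 36 of the 38 members, the exceptions being ITGB1 and TNS3, and within a 1.5-fold change for 24 of them (63.2%, against 78.6% of all genes). The median difference between MPA and control was 0.08 over the members and 0.02 over all genes, and 25 members (65.8%) had a positive difference against 55.3% of all genes. Scaling the arrays to 8 housekeeping genes moved all genes down alike: 19 of 38 members (50.0%) then had a positive difference against 34.3% of all genes, with medians of -0.0024 and -0.06.

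**Figure D1:**
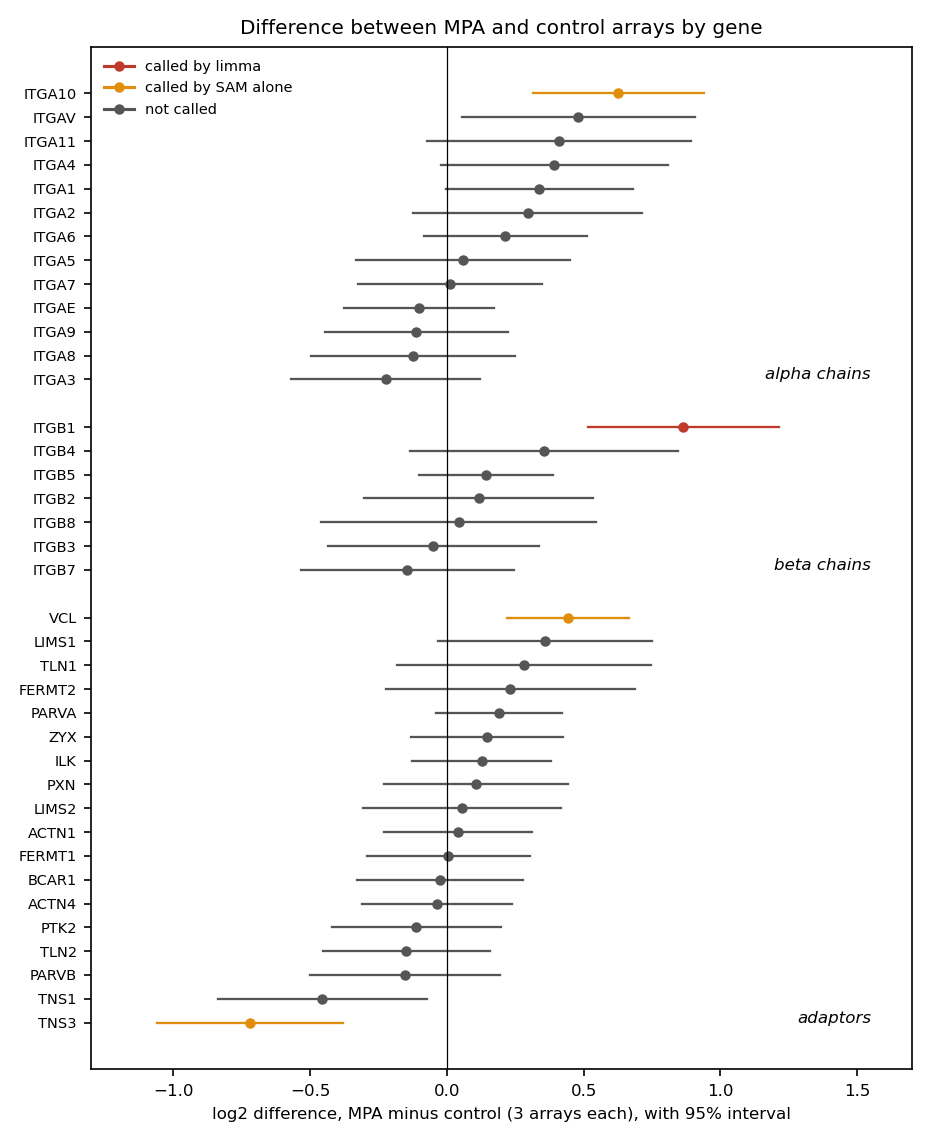
Difference in log2 signal between the 3 MPA and the 3 control arrays for the brightest probe set of each of the 38 measured members, with its 95% interval from limma (horizontal bars), grouped into alpha chains, beta chains and adaptors and sorted by size. ITGB1 at 0.86 was the member called by limma, ITGA10, VCL and TNS3 were called by SAM alone, and most other intervals span 0.

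The sequence just upstream of the transcription start is shown for these 4 members, ITGB1 because it was the member called by limma, and ITGA10, VCL and TNS3 because SAM also called them. Sequences are the 250 bases before the start in RefSeq (GRCh38.p14), written 5′ to 3′ on the strand of the gene, and lie at chr10:32958231-32958480 on the minus strand for ITGB1, chr1:145910051-145910300 on the minus strand for ITGA10, chr10:73997866-73998115 on the plus strand for VCL and chr7:47582587-47582836 on the minus strand for TNS3. Capitals mark the hexamer TGTTCT, to which 1 receptor of a progesterone receptor dimer binds, or a GC box (GGGCGG, the site of Sp1-type factors), each on either strand.
ITGB1: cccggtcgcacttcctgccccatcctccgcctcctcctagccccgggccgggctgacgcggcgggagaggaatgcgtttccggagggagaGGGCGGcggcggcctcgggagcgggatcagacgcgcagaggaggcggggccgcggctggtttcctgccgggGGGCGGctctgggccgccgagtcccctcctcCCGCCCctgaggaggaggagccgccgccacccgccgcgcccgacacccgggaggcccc
ITGA10: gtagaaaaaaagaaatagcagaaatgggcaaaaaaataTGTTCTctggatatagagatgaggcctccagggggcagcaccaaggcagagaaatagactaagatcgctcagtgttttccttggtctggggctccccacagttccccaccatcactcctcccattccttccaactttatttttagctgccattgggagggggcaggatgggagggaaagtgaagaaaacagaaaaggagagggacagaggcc
VCL: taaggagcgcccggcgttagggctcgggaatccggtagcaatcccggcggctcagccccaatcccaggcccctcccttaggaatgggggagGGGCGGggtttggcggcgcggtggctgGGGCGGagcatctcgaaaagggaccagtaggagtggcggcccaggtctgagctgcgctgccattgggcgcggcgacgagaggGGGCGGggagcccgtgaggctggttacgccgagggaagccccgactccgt
TNS3: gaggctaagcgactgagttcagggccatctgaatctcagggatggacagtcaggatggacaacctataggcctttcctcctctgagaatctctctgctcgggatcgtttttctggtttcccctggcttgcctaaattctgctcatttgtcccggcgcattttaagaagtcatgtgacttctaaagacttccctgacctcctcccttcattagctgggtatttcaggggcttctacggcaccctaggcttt
The ITGB1 and VCL sequences each held 3 GC boxes and no such hexamer, the ITGA10 sequence held 1 hexamer and no GC box, and the TNS3 sequence held neither. The GC content was 78.4% for ITGB1, 70.4% for VCL, 50.4% for TNS3 and 48.4% for ITGA10. Promoters were found for 30 of the 39 members. Of these, 4 (13.3%) held the hexamer, against 12.4% of 27305 promoters of the same length: ITGA6 with 2, and ITGA10, ITGB6 and LIMS2 with 1 each. A pair of hexamers 3 bases apart, in the arrangement of a full receptor element, was in 0 of the 30 and in 1 of all promoters. GC boxes were in 17 of the 30 (56.7%) against 42.3%, and a TATA box (TATAAA, either strand) was in 2 (6.67%) against 11.1%. These matches describe letters in a short window and not binding.

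ITGB1 encodes the beta chain that pairs with most alpha chains and with them forms the main collagen, laminin and fibronectin receptors. Its brightest probe set (211945_s_at) read 11.56, 12.15 and 11.85 on control 1, 2 and 3 and 12.67, 12.81 and 12.67 on MPA 1, 2 and 3. The lowest MPA array was thus above the highest control array, control 2, and the MPA arrays lay closer together than the control arrays. The mean rose from 11.85 ± 0.29 (SD, n = 3) to 12.72 ± 0.08, a difference of 0.86 with a standard error of 0.15 and a 95% interval of 0.51 to 1.21 (adjusted p = 0.0265, limma).

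Both other ITGB1 probe sets with a bright signal rose as well, and by more. The probe set 1553530_a_at read 9.67, 10.58 and 10.16 on the control arrays and 11.36, 11.62 and 11.48 on the MPA arrays, a difference of 1.34 (2.54-fold, adjusted p = 0.0145). The probe set 1553678_a_at read 9.11, 10.11 and 9.78 on the control arrays and 10.91, 11.20 and 11.20 on the MPA arrays, a difference of 1.43 (2.70-fold, adjusted p = 0.0176). In all of these probe sets control 1 was the lowest and control 2 the highest of the control arrays, and in none did the groups overlap. Taken within each array, the gap to the brightest probe set narrowed by 0.48 and by 0.57 with MPA, again with no overlap between the groups (p = 0.1 each, exact permutation test, two-sided, the smallest value that 3 against 3 arrays allow). The estimated fold of ITGB1 ran from 1.82 to 2.70 over its bright probe sets. Whether the folds truly differ cannot be decided by the permutation test, which cannot give a p under 0.1 here. The limma intervals of the difference overlapped, at 0.51 to 1.21 for the brightest probe set, 0.86 to 1.82 for 1553530_a_at and 0.90 to 1.97 for 1553678_a_at. They were fitted for each probe set separately although all were read on the same arrays, so their overlap does not decide it either. The remaining 4 ITGB1 probe sets were dim, with group means of 2.57 to 3.32, and none was called by limma (differences of -0.17, -0.04, 0.49 and 0.39), though SAM called the one that differed by 0.49.

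The ITGB1 call rested on most of the arrays. Its brightest probe set kept the call without control 2 (adjusted p = 0.00930), and lost it without control 1 (0.0814), control 3 (0.136), MPA 1 (0.115), MPA 2 (0.0941) or MPA 3 (0.0573), while the difference stayed between 0.72 and 1.01. The probe set 1553530_a_at kept the call without control 1, control 2 or MPA 3, and 1553678_a_at without control 1 or control 2. Over all 116 member probe sets, these 3 of ITGB1 were the calls, all of them higher, where 1.21% of all probe sets were called higher and 0.813% lower.

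**Figure D2:**
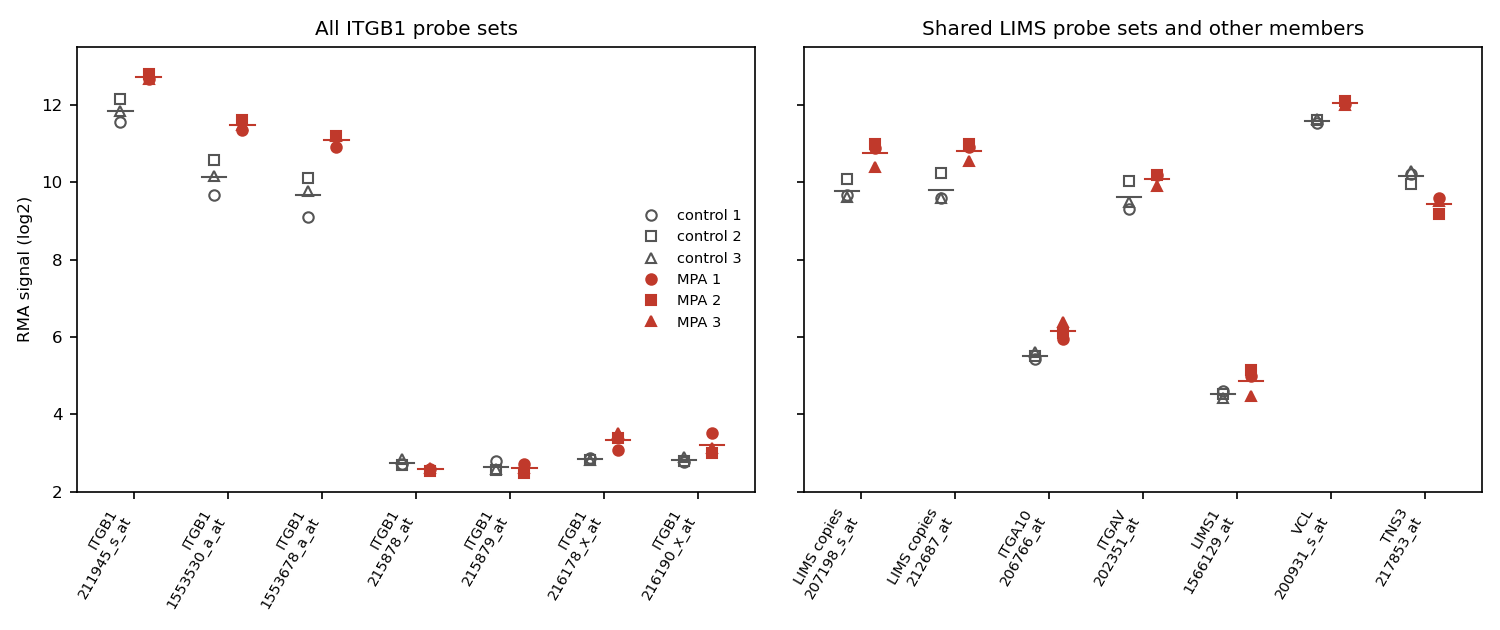
RMA signal on the log2 scale on each of the 3 control (open) and 3 MPA (filled) arrays, with group means as lines. The left panel holds all 7 ITGB1 probe sets, of which the 3 bright ones separate the groups, and the right panel holds both probe sets shared between LIMS genes and the brightest probe sets of ITGA10, ITGAV, LIMS1, VCL and TNS3.

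The other beta chains did not pass the test. Of the 7 beta chains measured, 5 had a positive difference and the median was 0.12. ITGB4, the laminin receptor chain of hemidesmosomes, was at 7.58 ± 0.28 in control and 7.94 ± 0.39 in MPA cells, with an interval of the difference of -0.13 to 0.84. ITGB5, a partner of ITGAV in vitronectin binding, was at 10.23 ± 0.09 and 10.37 ± 0.10, with an interval of -0.10 to 0.39. ITGB8, another ITGAV partner that takes part in activation of latent TGF-beta, was at 7.75 ± 0.35 and 7.79 ± 0.35. For ITGB8 the spread within each group was larger than the difference between the groups, with control 2 (8.15) and MPA 2 (8.18) both above all other arrays (7.50 to 7.68).

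ITGB3, which with ITGAV forms the vitronectin receptor studied as a marker of receptive endometrium, was at 6.03 ± 0.04 and 5.98 ± 0.35, while its dim probe set 204627_s_at differed by -0.53 (0.694-fold, adjusted p = 0.159). ITGB2, the chain of leukocyte integrins, was at 5.36 ± 0.03 and 5.47 ± 0.39, just above the array medians. ITGB7, a lymphocyte homing chain that pairs with ITGA4 and ITGAE, was at 6.09 ± 0.27 and 5.95 ± 0.23. For ITGB2 and ITGB3, as for ITGB4, MPA 3 was the highest array (5.90, 6.35 and 8.38). The 4 probe sets that the annotation gives to ITGB6 together with a long noncoding RNA, LINC02478, were below the array medians in both groups (means of 2.71 to 4.03), and none was called.

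None of the 13 alpha chains passed the test. Their differences ran from -0.22 to 0.63 with a median of 0.21, 9 of them positive, and all 13 intervals lay within a 2-fold change. The median was 0.19 with quantile normalization repeated (0.0004 over all genes) and 0.13 with scaling to housekeeping genes, with 8 and 7 of 13 positive. The 12 alpha chains that can pair with ITGB1 had a median of 0.25, with 9 positive and 0 called, while ITGB1 itself was at 0.86. Control 2 was the highest control array for 6 of these 12 partners (50.0%, against 32.4% of all genes), and for the 18 adaptors it was the lowest control array in 13 (72.2%, against 48.1% of all genes). The part of this spread within the control group in the differences between the groups was not tested.

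Of the collagen-binding chains, ITGA10, found mainly on chondrocytes, had the largest difference of the alpha chains. It read 5.43, 5.51 and 5.61 on the control arrays and 5.93, 6.10 and 6.40 on the MPA arrays. The groups did not overlap, though the signal was little above the array medians. Its means were 5.52 ± 0.09 and 6.14 ± 0.23 (1.54-fold, adjusted p = 0.0682), and SAM called it. ITGA1, a receptor for collagen of basement membranes, was at 5.84 ± 0.26 and 6.18 ± 0.13, with an interval of the difference of -0.0045 to 0.68. ITGA2, the epithelial and platelet collagen receptor, was at 7.16 ± 0.37 and 7.46 ± 0.14. ITGA11, a fibroblast collagen receptor, was at 5.64 ± 0.22 and 6.05 ± 0.42. All 4 collagen-binding chains had a positive difference, and for ITGA1 and ITGA2 control 2 lay among the MPA arrays.

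Among the laminin receptors, ITGA6, which pairs with ITGB1 or ITGB4, was at 8.42 ± 0.22 in control and 8.63 ± 0.06 in MPA cells. Its arrays did not overlap, but the highest control array (8.56) and the lowest MPA array (8.57) were almost equal. A second ITGA6 probe set, 215177_s_at, was at 7.80 and 8.25, again without overlap (0.45, adjusted p = 0.399). ITGA3, the other main epithelial laminin receptor, was at 8.03 ± 0.20 and 7.81 ± 0.22, the most negative difference of the alpha chains (-0.22, interval -0.57 to 0.12). ITGA7, a laminin receptor best known from muscle, was at 6.89 ± 0.19 and 6.90 ± 0.21.

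ITGAV, the alpha chain that pairs with ITGB1, ITGB3, ITGB5, ITGB6 and ITGB8 and reads the RGD motif, was at 9.61 ± 0.37 and 10.09 ± 0.17, a difference of 0.48 (1.39-fold, adjusted p = 0.397). Its arrays overlapped, since control 2 (10.02) was above MPA 3 (9.89). ITGA5, the classical fibronectin receptor chain, was at 7.58 ± 0.17 and 7.64 ± 0.32, with an interval of the difference of -0.33 to 0.45. ITGA8, another RGD-binding chain, lay near the array medians with a difference of -0.12. ITGAE, which pairs with ITGB7 and binds E-cadherin, was at 10.81 ± 0.09 and 10.71 ± 0.17.

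ITGA4, the fibronectin and VCAM1 receptor chain of leukocytes, was at 5.24 ± 0.36 and 5.63 ± 0.15 (1.31-fold, adjusted p = 0.528). A dimmer ITGA4 probe set (205885_s_at), at 3.42 ± 0.14 and 3.93 ± 0.19, was called by SAM but not by limma (1.43-fold, adjusted p = 0.133). ITGA9, a close relative that binds tenascin and osteopontin, was below every array median in both groups. Its brightest probe set differed by -0.11 (0.925-fold, means of 4.45 ± 0.20 and 4.34 ± 0.20, adjusted p = 0.909), whereas 227297_at, at 4.08 ± 0.18 and 4.59 ± 0.16, differed by 0.51 and was called by SAM (1.42-fold, adjusted p = 0.147 by limma). The probe sets 206009_at (0.40, adjusted p = 0.331 by limma) and 1555335_at (0.08) were positive too, so that only the brightest was negative. The direction of ITGA9 therefore depended on the probe set.

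**Figure D3:**
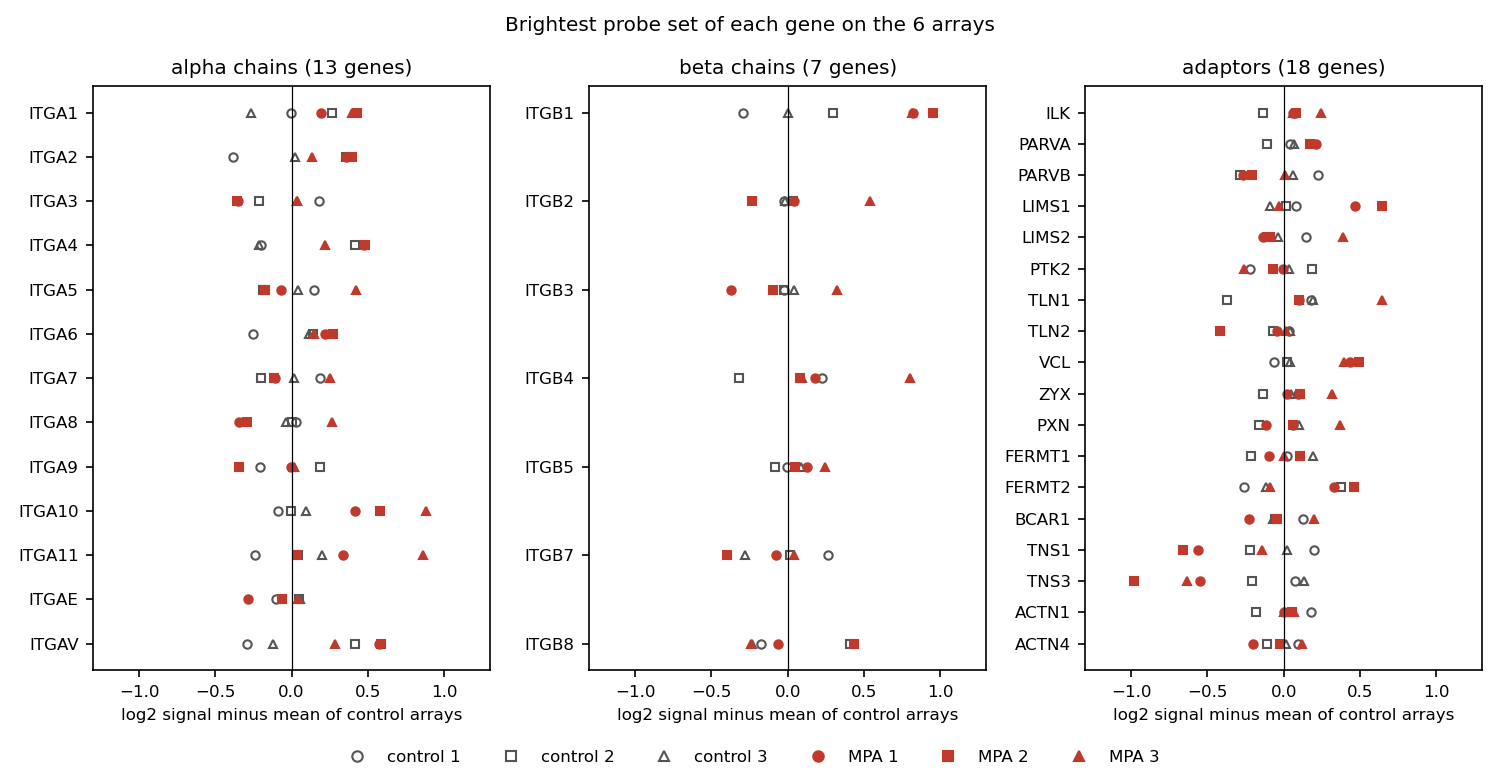
Log2 signal of each of the 38 measured members on every array, as the difference from the mean of the 3 control arrays, for alpha chains, beta chains and adaptors. Open symbols are control arrays and filled symbols MPA arrays. The groups separate for ITGB1, ITGA10, ITGA6 (by a narrow margin), PARVA, VCL and TNS3, while for most members the arrays of both groups lie among each other, with MPA 3 at the upper end in many rows.

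MPA 3 was the highest MPA array for 24 of the 38 members (63.2%), against 59.1% of all genes. Without MPA 3, ITGA10 was at 0.50 (adjusted p = 0.0969), VCL at 0.47 (0.0828) and TNS3 at -0.76 (0.0860).

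None of the 18 adaptors passed the test either, and their median difference was 0.05, with 11 positive. After scaling to housekeeping genes the median was -0.04, with 8 positive (44.4%, against 34.3% of all genes). Vinculin (VCL), which binds talin and actin and reinforces adhesions under force, had the largest positive difference of the adaptors. It read 11.53, 11.62 and 11.64 on the control arrays and 12.04, 12.09 and 12.00 on the MPA arrays. Both groups were tight and did not overlap, with means of 11.60 ± 0.06 and 12.04 ± 0.05 (1.36-fold, adjusted p = 0.0709). SAM called it, and so did limma with a variance prior that follows intensity (adjusted p = 0.00850). The other limma settings did not call VCL. Among them were scaling to housekeeping genes (0.36, adjusted p = 0.144), averaged probe sets (0.39, 0.111) and each array left out (0.0828 to 0.285).

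Tensin 3 (TNS3), which binds the tails of beta chains and actin, had the most negative difference of all members. It read 10.22, 9.94 and 10.29 on the control arrays and 9.60, 9.17 and 9.52 on the MPA arrays. Every MPA array was below every control array. The means were 10.15 ± 0.18 and 9.43 ± 0.23, a difference of -0.72 (0.607-fold, adjusted p = 0.0549). TNS3 was just outside the threshold, and it was called lower by SAM and with the intensity trend (adjusted p = 0.0313). It was also called with dim probe sets left out (0.0431), without control 2 (0.0387) and after scaling to housekeeping genes (0.0269), which moved all genes down. TNS3 was not called with quantile normalization repeated (0.0561), nor without control 1, control 3, MPA 1, MPA 2 or MPA 3 (0.0860 to 0.266). Its second probe set, dim at 3.90 and 3.96, did not follow, and the mean of both differed by -0.33 (adjusted p = 0.217). Its relative TNS1 was at 6.24 ± 0.21 and 5.79 ± 0.28 by the brightest probe set (-0.46, 0.729-fold, adjusted p = 0.353), while its 4 other probe sets differed by -0.10 to 0.15.

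The ILK, PINCH and parvin complex joins beta chains to actin. The kinase-like core ILK was at 10.33 ± 0.12 and 10.46 ± 0.10, with an interval of the difference of -0.13 to 0.38. PARVA, the widely expressed parvin, was at 8.49 ± 0.10 and 8.68 ± 0.02 (1.14-fold, adjusted p = 0.616). Its arrays did not overlap, and the probe sets 213675_at and 222455_s_at, which differed by 0.44 and 0.48, were called by SAM but not by limma (adjusted p = 0.141 and 0.132), while 215418_at differed by -0.33. PARVB, another parvin, differed by -0.15 and LIMS2, a second PINCH protein, by 0.06.

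LIMS1 encodes PINCH1, the partner of ILK. Its own brightest probe set was below every array median (4.51 ± 0.09 and 4.87 ± 0.35), so that the gene by itself was hardly measured. Both bright LIMS probe sets are annotated to LIMS1 together with its near-identical copies LIMS3 and LIMS4 and were therefore not counted among the members. The probe set 207198_s_at, of LIMS1 and LIMS4, read 9.66, 10.09 and 9.61 on the control arrays and 10.90, 10.99 and 10.41 on the MPA arrays. The probe set 212687_at, of LIMS1, LIMS3 and LIMS4, read 9.60, 10.24 and 9.60 on the control arrays and 10.92, 10.99 and 10.56 on the MPA arrays. Both rose with no overlap between the groups, the former by 0.98 (1.97-fold, adjusted p = 0.0380) and the latter by 1.01 (2.01-fold, adjusted p = 0.0420). Which of the copies gave the signal cannot be told apart with these probes. Both probe sets lost the call with quantile normalization repeated (adjusted p = 0.0521 and 0.0553), with scaling to housekeeping genes (0.0573 and 0.0653), and without control 1, control 3, MPA 1 or MPA 2 (up to 0.194 and 0.206).

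The talins and kindlins, which switch integrins on, differed by -0.15 to 0.28. TLN1, the main talin, was at 7.46 ± 0.32 and 7.74 ± 0.32, TLN2 at 5.95 ± 0.06 and 5.81 ± 0.23, the epithelial kindlin FERMT1 at 5.70 ± 0.20 and 5.71 ± 0.10, and the widely expressed kindlin FERMT2 at 10.27 ± 0.34 and 10.50 ± 0.29. By their brightest probe sets, FAK and its scaffolds differed by -0.11 to 0.11, and these 3 intervals lay within a 1.5-fold change. The focal adhesion kinase FAK itself (PTK2) was at 9.71 ± 0.21 and 9.60 ± 0.14, paxillin (PXN) at 7.94 ± 0.14 and 8.05 ± 0.25, and p130Cas (BCAR1) at 7.05 ± 0.11 and 7.02 ± 0.21. Dimmer probe sets of PTK2 and PXN differed by more without a call: 1559529_at of PTK2, near or below the array medians, was at 5.16 and 4.43 (-0.73, interval -1.33 to -0.13, adjusted p = 0.337), and 211823_s_at of PXN was at 5.68 and 6.15 with no overlap between the groups (0.47, interval 0.10 to 0.84, adjusted p = 0.312). Among the remaining actin linkers, zyxin (ZYX) differed by 0.15, and the alpha-actinins ACTN1 and ACTN4 by 0.04 and -0.03, with intervals of -0.23 to 0.31 and -0.31 to 0.24.

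**Figure D4:**
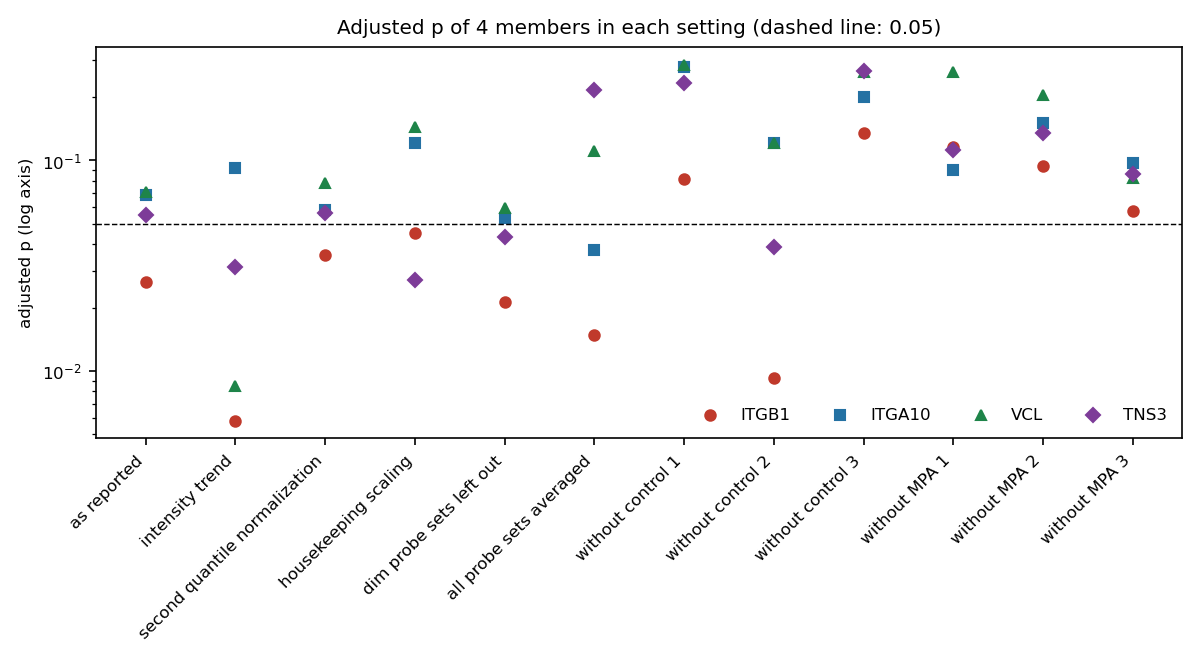
Adjusted p from limma (log axis) of ITGB1, ITGA10, VCL and TNS3 as reported and in 11 other settings, with the threshold of 0.05 as a dashed line. ITGB1 is below the line as reported and in every setting that kept all arrays, but among the settings that left an array out it is below it only without control 2.

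Outside the members, larger changes than that of ITGB1 were found among the ligands and other adhesion genes. Of 30 measured integrin ligands, 4 fell and 1 rose, with a median difference of -0.02. By the same rule 1.16% of all genes were lower and 1.74% higher, with a median of 0.02. This list and those below were chosen with earlier results of these data known, so that their counts are not a test. LAMB3, a chain of the epithelial laminin that ITGA3 and ITGA6 receptors bind, fell by 1.60 on the log2 scale (0.329-fold, adjusted p = 0.00228), from 8.53, 8.16 and 8.51 on the control arrays to 6.78, 6.50 and 7.11 on the MPA arrays. TNC, or tenascin C, a matrix glycoprotein bound by ITGA9, fell by 1.53 (0.345-fold, adjusted p = 0.000663). Fibronectin (FN1), the ligand of ITGA5, fell by 1.20 (0.435-fold, adjusted p = 0.0202), and osteopontin (SPP1), a ligand of ITGAV and ITGA9, by 1.11 (0.464-fold, adjusted p = 0.00236). The ligand that rose was FBN1, or fibrillin 1, an RGD-bearing microfibril protein (2.17-fold, adjusted p = 0.00126). The calls of LAMB3, TNC, SPP1 and FBN1 held without any 1 of the 6 arrays, whereas that of FN1 was lost without control 1, control 3, MPA 1 or MPA 2 (adjusted p up to 0.109). When the probe sets of each gene were averaged, the falls were smaller but still called for TNC (-0.72), FN1 (-0.80) and SPP1 (-0.60).

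Of 34 other adhesion adaptors and kinases, 2 rose and 2 fell, against 1.74% and 1.16% of all genes, with a median of 0.03. PDLIM1, a PDZ and LIM domain protein that binds alpha-actinin, had the largest change of all genes named here. It read 9.54, 8.91 and 9.30 on the control arrays and 11.31, 11.25 and 11.32 on the MPA arrays (4.12-fold, adjusted p = 0.000410), and the call held without any 1 array. SVIL, or supervillin, an actin-binding membrane linker, rose 1.68-fold (adjusted p = 0.0137), a call lost without control 1, control 3 or MPA 1 (up to 0.0885). NEDD9, a p130Cas relative, fell by 0.91 (0.531-fold, adjusted p = 0.00846), a call lost without control 3 (0.0641). KANK2, which sits with talin at the rim of adhesions, fell by 0.65 (0.637-fold, adjusted p = 0.0156), a call lost without control 1, control 3, MPA 1 or MPA 2 (up to 0.112) and with all of its probe sets averaged (-0.30, adjusted p = 0.309). Averaged, SVIL was at 0.47 and NEDD9 at -0.56, both still called.

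Of 18 integrin partners and inhibitors of activation, 2 fell and none rose, against 1.16% and 1.74% of all genes, with a median of 0.13. DAB2, an endocytic adaptor for beta chains, fell by 0.80 (0.573-fold, adjusted p = 0.00745), a call lost without control 3 (0.0564) and kept at a smaller change, -0.50, with its probe sets averaged. SLC3A2, or CD98hc, which binds the tails of beta chains, fell by 0.62 (0.649-fold, adjusted p = 0.0259), a call lost without control 1, control 3, MPA 1 or MPA 2 (up to 0.151). None of the 5 leukocyte and platelet integrin chains was called.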

How the data were processed

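RNA of IKPRAB-36 cells, 3 control and 3 MPA samples, had been hybridized to Affymetrix U133 Plus 2 arrays, and all 6 arrays were used. The deposited values were log2 signals from RMA, with which the authors had corrected the background and normalized the arrays. Neither step was repeated for the main comparison, and quantile normalization was applied again only as an alternative. No source used here gives the software version. Of 54675 probe sets, 62 Affymetrix controls were left out. Platform annotation gave, after an update of symbols by Entrez identifier, 41091 probe sets 1 gene, 1801 several and 11721 none. Groups were compared with limma 3.58.1 in R 4.3.3 (two-sided, lmFit followed by eBayes without covariates), and p-values were adjusted by Benjamini-Hochberg over 54613 probe sets. SAM (delta 0.53, all 20 relabelings, constant at the 55th percentile of the spread) was written from its description. Both were tested on simulated data.

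The members and gene lists were chosen with earlier results of these data known. Values per array were given for members called by limma, and means, fold and adjusted p for members with an unadjusted p under 0.05 or a SAM call; values per array of other members and of neighbouring genes were added after their values were seen. Of the other lists, genes called by limma were named, at most 4 per direction. The alternatives were a replicate block, SAM, an intensity trend, no fold minimum, a second quantile normalization, scaling to 8 housekeeping genes, a filter that kept 27674 probe sets above the array median on at least 3 arrays, averaging over every probe set of a gene, and each array left out in turn. The number of arrays limits the precision. Detection calls were not used here. The list of GTPases and their regulators at adhesions is not reported here.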

Additional observations from a re-analysis of the deposited data

How the results depend on the processing

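ITGB1 stayed positive in all alternatives (log2 difference of 0.62 to 1.01) and called in every one that kept all arrays (adjusted p of 0.00248 to 0.0454 in those fitted with limma). The number of members called higher was 1 as reported, 2 with the intensity trend (ITGB1 and VCL), 2 with all probe sets averaged (ITGA10 and ITGB1), 3 by SAM and 0 to 1 with 1 array left out. The number called lower was 0 as reported, 1 with the intensity trend, with housekeeping scaling, with dim probe sets left out and by SAM, and 0 to 1 with 1 array left out, the gene being TNS3 each time. Of the member probe sets, 3 were called higher as reported, 4 with the intensity trend, 10 by SAM and 0 to 3 with 1 array left out, and 0 were called lower as reported, 1 with the intensity trend, with housekeeping scaling, with dim probe sets left out and by SAM, and 0 to 1 with 1 array left out. No fold minimum changed none of these counts. Over all 54613 probe sets, 663 were called higher as reported, 696 with the intensity trend and 353 to 725 with 1 array left out. Lower were 444 as reported, 453 with the intensity trend, 627 with housekeeping scaling and 156 to 465 with 1 array left out. With all probe sets averaged, 356 of 19775 genes were called higher and 215 lower. With dim probe sets left out, 652 of 27674 probe sets were called higher and 466 lower. The share of all probe sets called by SAM is not given here, so that its 10 member probe sets cannot be set against it. ITGA9 reversed from -0.11 to 0.22 with its probe sets averaged and ranged from -0.21 to 0.0055 with 1 array left out, turning positive without MPA 2; averaging brings in its other probe sets, and the cause of the change without MPA 2 was not tested. ITGB1, ITGA4, ITGA10, ITGAV, PARVA, VCL, TNS1 and TNS3 changed direction in none of these settings. Of the other members, none of them called, up to 6 had the other sign in 1 setting (ITGA5, ITGA7, ITGB8, LIMS2, FERMT1 and ACTN1 with housekeeping scaling), and ITGB2, ITGB3, PXN, BCAR1 and ACTN4 did so in others.

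With the replicate number as a replicate block, 2 members were higher (ITGA10 and ITGB1) and 1 lower (TNS3), 5 member probe sets were higher and 2 lower, and 1208 probe sets of all genes were higher and 825 lower, against 663 and 444 without it. The labels state no pairing, only a shared number. Deviations of same-numbered arrays correlated at -0.017, 0.523 and 0.326, and those of differently numbered arrays at -0.479 to 0.352. Control 2 and control 3 correlated best with the MPA array of the same number, and control 1 with MPA 3 (0.352). Whether the numbers mark true pairs cannot be decided from 3 arrays per group. With the block, the adjusted p from limma was 0.0122 for ITGA10 and 0.00423 for TNS3. Housekeeping scaling turned the split of all probe sets to 541 higher and 627 lower. Leaving out control 1 gave 413 higher and 195 lower. Leaving out control 3 gave 362 and 156, MPA 1 353 and 176, and MPA 2 460 and 279. Without MPA 3, where ITGB1 also lost its call, the counts stayed at 647 and 420. A background correction could not be varied, since the values are RMA signals already. Probe sets below the array medians, as for ITGA9, LIMS1 and ITGB6, give little information on direction.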
